A study of Homo sapiens
Mus musculus and Homo sapiens and Mus musculus with 7 samples.

Results

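The genes encoded by the mitochondrial chromosome were followed in a co-culture of human and mouse cells, as all genes that the count files place on the human or the mouse mitochondrial chromosome. The rule took 74 of 113473 genes, which are 37 of 58721 human and 37 of 54752 mouse genes. Each species contributed 2 ribosomal RNA (rRNA) genes, 13 protein-coding genes and 22 transfer RNA (tRNA) genes. The 37 places follow the same order and strand on both chromosomes, so that each human gene was set beside the mouse gene at its place. Lengths at a place differed by at most 12 bases for protein-coding genes and 5 bases for tRNA genes. Mouse genes carry no symbol in the sources used here and are given by identifier and by the human gene at the same place.

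RPL22 is a protein of the large subunit of the cytosolic ribosome. HEK293, a human embryonic kidney line, expressed RPL22-HA, and NIH3T3, a mouse fibroblast line, expressed RPL22-V5. The lines were grown together, and ribosomes with their RNA were pulled down by immunoprecipitation (IP) with an antibody against the HA tag (2 libraries, aimed at HEK293) or the V5 tag (2 libraries, aimed at NIH3T3). The reference libraries were 1 co-culture input without IP, 1 HEK293 monoculture and 1 NIH3T3 monoculture. The first HA and first V5 IP came from lysate 1, the second HA IP from lysate 5 and the second V5 IP from lysate 4. How the lysates relate to separate cultures is not given, so p-values measure only the spread between these libraries, which may be technical. Nor do the labels say if the monocultures had a tag.

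The mitochondrial chromosome encodes core subunits of respiratory complexes I, III and IV and of ATP synthase, together with the rRNAs and tRNAs needed to translate them. Both strands are transcribed as long precursors that are cut into single RNAs, and these mRNAs are read inside the organelle by mitochondrial ribosomes. Mitochondrial ribosomes are built from their own rRNAs and from proteins imported from the cytosol, and RPL22 is not one of them.

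Libraries held 826781 to 2063885 counts. The HA IPs held 729698 and 1213213 human and 158572 and 350176 mouse counts, the V5 IPs 128915 and 81798 human and 1934970 and 1744329 mouse counts, and the input 280163 human and 759701 mouse counts. In these species totals of bulk libraries, fewer cells of a line and less RNA per cell cannot be told apart. Epithelial and fibroblast markers were looked up among human genes, as a description of the human line. Species follows from the chromosome of a gene, so these human genes cannot check it or show RNA of the mouse line NIH3T3. KRT18 had 90 and 164 counts after HA IP, 38 in the input and 161 in HEK293, and KRT8 had 1 and 6 after HA IP, 2 in the input and 7 in HEK293. VIM, which fibroblasts also express, had 69 and 60 counts after HA IP, 11 in the input and 85 in HEK293. Of the 5 fibroblast genes looked up, COL1A2, COL3A1 and THY1 had 0 counts in each of these libraries, and COL1A1 and LUM had at most 1. No mouse marker could be looked up. Counts of the wrong species in the mitochondrial genes were 0 mouse counts in HEK293, beside 69020 human ones, and 1 human count in NIH3T3, beside 59271 mouse ones.

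In human mitochondrial DNA, pairs of protein-coding genes overlap, and pairs of reads on shared bases cannot be given to 1 gene. The file headers list no option that counts a read pair toward several genes. The overlaps are shown because they lie in short protein-coding members with few counts. Both stretches are on the plus strand of hg38, from GENCODE 29 transcripts, at chrM:8507-8592 and chrM:10740-10786, with 20 flanking bases on each side in lower case and the shared bases in capitals.
MT-ATP8/MT-ATP6: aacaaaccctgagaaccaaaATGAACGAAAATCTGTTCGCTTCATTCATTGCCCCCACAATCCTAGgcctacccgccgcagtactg
MT-ND4L/MT-ND4: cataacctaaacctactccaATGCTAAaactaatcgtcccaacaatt
The first overlap spans 46 bases, which is 22.2% of MT-ATP8, and the second 7 bases, which is 2.36% of MT-ND4L.

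Mitochondrially encoded RNA was a small share of what each antibody pulled down from its own species. Human mitochondrial genes took 0.354% and 0.466% of human counts after HA IP, 2.28% and 3.54% after V5 IP, 5.58% in the input and 8.35% in HEK293. Mouse mitochondrial genes took 0.222% and 0.234% of mouse counts after V5 IP, 2.22% and 2.02% after HA IP, 1.97% in the input and 2.97% in NIH3T3. Exact Clopper-Pearson 95% intervals, which cover counting error only, were narrow (0.34% to 0.368% in the first HA IP).

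In both species the IP aimed at that species lay below the other IP and below the input, and the pairs did not overlap. The human share averaged 0.410% ± 0.0794 in HA IPs and 2.91% ± 0.890 in V5 IPs (SD, n = 2 each), a difference of -2.50 points. The mouse share averaged 0.228% ± 0.00877 in V5 IPs and 2.12% ± 0.145 in HA IPs (SD, n = 2 each). A two-sided exact permutation test of HA against V5 gave p = 0.33 for each species, the smallest p that 2 against 2 libraries allow. Against the single input, the mean of the on-target IPs, those aimed at the species in question, was 13.6-fold lower for human and 8.65-fold lower for mouse genes.

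**Figure D1:**
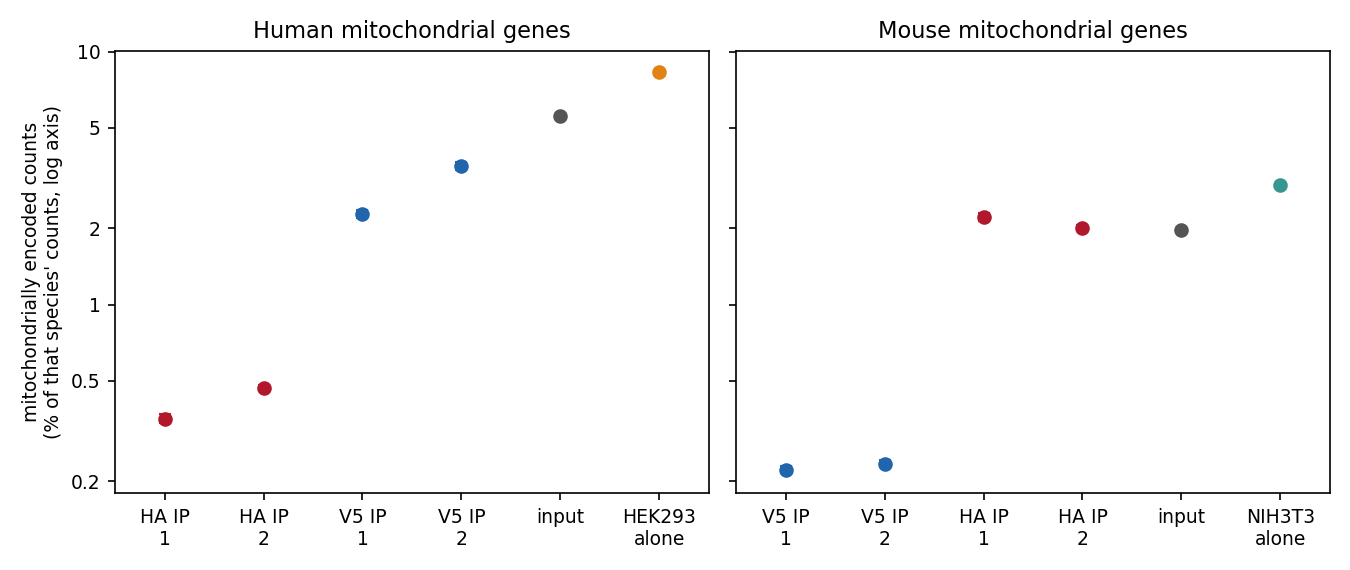
Mitochondrially encoded counts as a percent of the counts of the same species (log axis) in each library, for human genes (left) and mouse genes (right), with exact 95% counting intervals that are mostly smaller than the points. The 2 IPs aimed at each species are lowest, at 0.354% and 0.466% for human and 0.222% and 0.234% for mouse genes.

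The species mix of mitochondrial counts differed little between the antibodies, and that of nuclear counts differed widely. Human genes held 42.3% and 44.5% of all mitochondrial counts after HA IP, 40.6% and 41.4% after V5 IP and 51.0% in the input. Human genes held 82.4% and 77.9% of nuclear counts after HA IP, 6.13% and 4.34% after V5 IP and 26.2% in the input. The HA IPs lay above the V5 IPs in both measures without overlap, by 2.38 points for mitochondrial counts (43.4% ± 1.54 in HA IPs and 41.0% ± 0.592 in V5 IPs; SD, n = 2 each) and by 74.9 points for nuclear counts (80.1% ± 3.22 in HA IPs and 5.23% ± 1.26 in V5 IPs; SD, n = 2 each). Each exact permutation p was 0.33, two-sided. The mitochondrial difference was 1.29 points without the second HA IP. It was 1.21 points (36.8% in HA IPs and 35.6% in V5 IPs) over the 28 places that lie outside a stretch of 9 mouse genes with almost no counts, described further on. In the input the human share over these 28 places was 44.2%.

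Set as odds against the input, nuclear counts moved toward the tagged species and mitochondrial counts moved in 1 direction under both antibodies. The odds of human over mouse nuclear counts were 13.2 and 9.91 times those of the input after HA IP. The same odds for mitochondrial counts were 0.703 and 0.768 times the input's. In the V5 IPs the odds of mouse over human were 5.44 and 7.83 times the input's for nuclear counts and 1.53 and 1.47 times for mitochondrial counts. In all 4 IPs the mitochondrial mix was thus shifted toward mouse relative to the 1 input, whichever antibody was used. Over the 28 places the odds of human over mouse were 0.714 and 0.757 times the input's after HA IP, and those of mouse over human were 1.45 and 1.42 times the input's after V5 IP. As a share of all counts, mitochondrial genes took 0.687% and 0.813% after HA IP, 0.350% and 0.382% after V5 IP and 2.94% in the input.

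**Figure D2:**
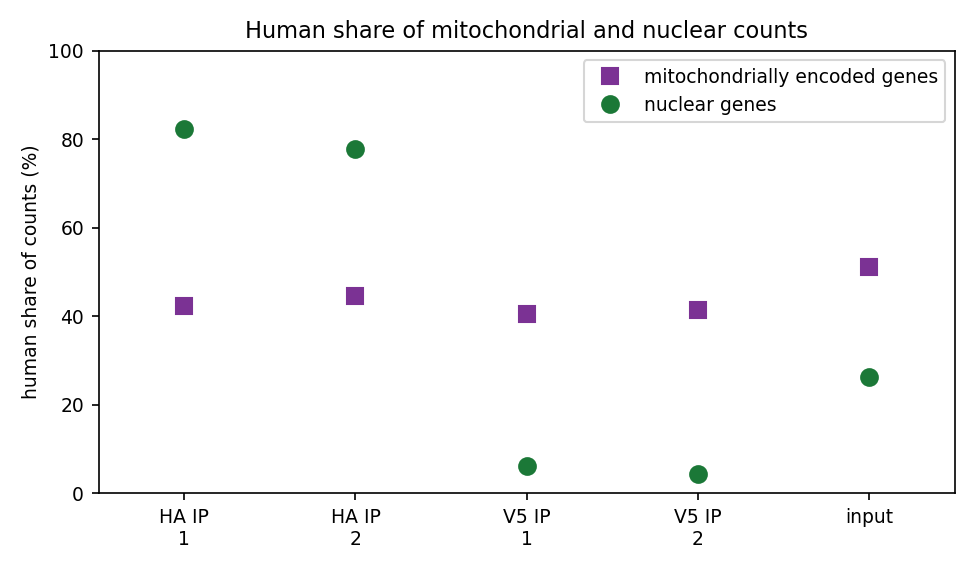
Human share of counts (percent, from 0 to 100) among mitochondrially encoded genes (squares) and nuclear genes (circles) in the 4 IPs and the input. Squares stay between 40.6% and 51.0%, while circles run between 4.34% and 82.4%.

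Gene by gene, changes were tested with edgeR's quasi-likelihood test within each species, with Benjamini-Hochberg adjustment over all genes tested and a threshold of 0.05. The spread of these fits rests on the pairs of IPs, since the input and monocultures are single. With 2 residual degrees of freedom, edgeR also draws the spread of a gene from all genes of the fit. How small an adjusted p becomes thus depends on that pooling and differs between the human and the mouse fit. The filter on low counts kept 17 of 37 human members (all 15 rRNA and protein-coding genes and 2 tRNA genes) and 12 of 37 mouse members (2 rRNA, 7 protein-coding and 3 tRNA genes). All 15 human rRNA and protein-coding genes also reached 10 counts in at least 1 HA IP, and all 9 tested mouse ones in at least 1 V5 IP. Of the tested tRNA genes, 0 of 2 human ones did so in an HA IP and 0 of 3 mouse ones in a V5 IP.

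Of the 17 human members tested, 15 fell after HA IP against the input and 0 rose, with a median log2 change of -3.90. The 2 tRNA genes were the members not called. Over all 6244 human genes tested, 0.432% were called lower and the median log2 change was 0.38. Against HEK293, 15 of 17 also fell, with a median of -3.90, where 0.32% of all human genes were called lower. Against the V5 IPs, 12 of 17 fell, with a median of -2.39, beside 0.32% of all human genes. That last count was 4 without the first V5 IP and 3 without the second, with medians of -2.63 and -2.16. In the V5 IPs against the input, 5 of 17 human members fell, with a median of -1.79, beside 0.496% of all human genes. Here the count was 11 without the first HA IP, 11 without the second HA IP, 1 without the first V5 IP and 0 without the second, with medians of -1.81, -1.82, -1.49 and -1.87.

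Mouse members also fell in the IPs aimed at their own species. Of the 12 mouse members tested, 10 fell after V5 IP against the input, with a median log2 change of -3.37, beside 0.499% of all 8221 mouse genes tested. They were 2 rRNA, 6 protein-coding and 2 tRNA genes. The calls against the HA IPs and against NIH3T3 also held 2 tRNA genes each. The 10 calls became 0 without the first V5 IP and 1 without the second, while the median of the 11 members then tested was -3.16 and -3.41, with all 11 below 0. Against the HA IPs, 11 of 12 fell, with a median of -3.06, beside 0.243% of mouse genes, and the count was 0 without the first V5 IP and 1 without the second, with medians of -2.92 and -3.28. Against NIH3T3, 10 of 12 fell, with a median of -3.53, beside 0.353% of mouse genes, and the count was 3 without the first V5 IP and 5 without the second, with medians of -3.19 and -3.48.

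In the HA IPs against the input, edgeR called 0 of 12 mouse members in either direction, where 1.09% of mouse genes were called lower and 0.535% higher. At an unadjusted p under 0.05 there were 2, 1 lower and 1 higher, and DESeq2 called 1 higher. The median log2 change of the members was -0.23 with the normalisation used and 0.23 when libraries were scaled by total mouse counts, so no direction is given.

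**Figure D3:**
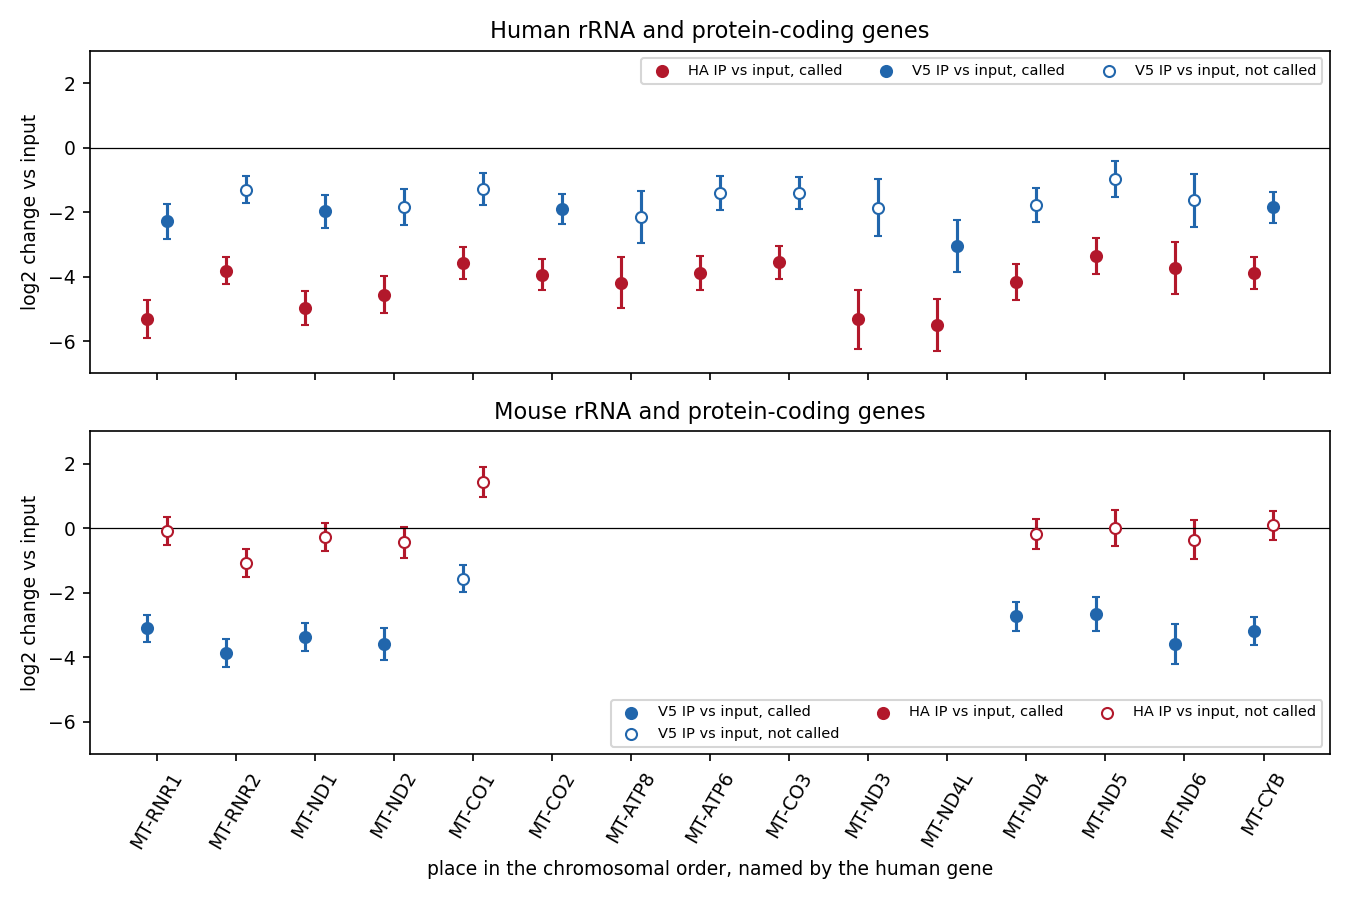
Log2 change against the input with its standard error for rRNA and protein-coding genes in chromosomal order, human genes above and mouse genes below; filled points passed the adjusted threshold and open points did not. Human HA values run between -5.51 and -3.36, and at the MT-CO1 place the mouse gene lies above its neighbours under both antibodies.

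The large rRNA was the most abundant human member per kilobase in each library with human cells. MT-RNR2, the large mitochondrial rRNA (hg38 chrM:1671-3229), was at 1810 and 2291 CPM after HA IP, 12163 and 18912 CPM after V5 IP, 26074 CPM in the input and 51272 CPM in HEK293 (counts scaled to 1000000 human counts). It fell after HA IP, with a log2 change against the input of -3.82 (SE 0.43, edgeR adjusted p = 6.82e-16), with both HA IPs below every other library. Over 13 alternative settings this change ran between -4.61 and -3.56. MT-RNR1, the small mitochondrial rRNA (chrM:648-1601), was at 46.6 and 37.9 CPM after HA IP, 543 and 342 CPM after V5 IP, 1492 CPM in the input and 2279 CPM in HEK293. Its log2 change after HA IP was -5.33 (SE 0.58, edgeR adjusted p = 2.48e-16), and it was also among the 5 genes that fell after V5 IP against the input, at -2.29.

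The large rRNA exceeded the small one per base in every library, but by differing amounts. In human counts the ratio per kilobase was 23.8 and 36.97 after HA IP, 13.7 and 33.8 after V5 IP, 10.7 in the input and 13.8 in HEK293. In mouse counts it was 4.62 and 4.48 after V5 IP, 4.09 and 3.66 after HA IP, 7.65 in the input and 9.95 in NIH3T3. The human ratio was thus above and the mouse ratio below its input in all 4 IPs. The small human rRNA rests on 28 to 70 counts in the IPs.

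The mouse gene at the place of MT-RNR2 (ENSMUSG00000064339.1) was at 715 and 775 CPM after V5 IP, 6836 and 5189 CPM after HA IP, 9056 CPM in the input and 15448 CPM in NIH3T3 (counts scaled to 1000000 mouse counts). Its log2 change after V5 IP was -3.86 (SE 0.43, edgeR adjusted p = 6.64e-06). The gene at the place of MT-RNR1 (ENSMUSG00000064337.1) was at 93.5 and 104 CPM after V5 IP, 1009 and 857 CPM after HA IP, 715 CPM in the input and 937 CPM in NIH3T3. Both V5 IPs were lowest for both genes, and the HA IPs of the second gene lay above the input. As a share of mitochondrial counts, rRNA took 52.5% and 49.96% of human counts after HA IP, 55.8% and 54.5% after V5 IP, 49.4% in the input and 64.1% in HEK293. The mouse rRNA share was 36.4% and 37.5% after V5 IP, 35.3% and 30.0% after HA IP, 49.5% in the input and 55.2% in NIH3T3.

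All 7 human complex I genes, which encode membrane subunits of NADH dehydrogenase, fell after HA IP against the input. MT-ND1 (chrM:3307-4262) was at 69.9 and 138 CPM after HA IP, 729 and 1589 CPM after V5 IP, 3062.5 CPM in the input and 2874 CPM in HEK293. It changed by -4.98 on the log2 scale (SE 0.54, edgeR adjusted p = 1.10e-16), the HA IPs being lowest without overlap. MT-ND4L and MT-ND3 had the most negative values of the protein-coding genes, -5.51 and -5.32, and rested on 11 and 4 counts and on 1 and 10 counts after HA IP. For these 2 genes the first and second IP of an antibody were unlike, and MT-ND4L had 10 and 3 counts after V5 IP. MT-ND2, MT-ND4, MT-ND5 and MT-ND6 changed by -4.57, -4.16, -3.36 and -3.72. Over 13 alternative settings, MT-ND6 did not pass the threshold in 2 and MT-ND3 in 1. MT-ND6 lies on the opposite strand, and since counting ignored strand, reads of its own RNA and of RNA from the other strand cannot be told apart.

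In mouse, the 5 complex I places with enough counts fell after V5 IP against the input. The gene at the MT-ND1 place (ENSMUSG00000064341.1) was at 643 and 662 CPM after V5 IP, 6540 and 6577 CPM after HA IP, 5672 CPM in the input and 6869 CPM in NIH3T3. It changed by -3.38 on the log2 scale (SE 0.43, edgeR adjusted p = 3.98e-05). The genes at the MT-ND2, MT-ND4, MT-ND5 and MT-ND6 places changed by -3.60, -2.73, -2.66 and -3.60. Per kilobase the gene at the MT-ND1 place lay above the large rRNA of the mouse in the IPs and the input and below it in NIH3T3. It was at 672 and 692 CPM per kb after V5 IP, 6833 and 6872 CPM per kb after HA IP, 5927 CPM per kb in the input and 7178 CPM per kb in NIH3T3. The large rRNA was at 452 and 490 CPM per kb after V5 IP, 4321 and 3280 CPM per kb after HA IP, 5725 CPM per kb in the input and 9765 CPM per kb in NIH3T3. Human MT-ND1 did not reach the large human rRNA in any library. Of the counts at that place, 4.69% and 6.80% were human after HA IP, 7.03% and 10.1% after V5 IP and 16.6% in the input.

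Complex III has 1 mitochondrially encoded subunit, cytochrome b. MT-CYB (chrM:14747-15887) was at 237 and 348 CPM after HA IP, 1187 and 2078 CPM after V5 IP, 3966 CPM in the input and 5575 CPM in HEK293, and its log2 change after HA IP was -3.90 (SE 0.50, edgeR adjusted p = 4.67e-12). At its place, ENSMUSG00000064370.1 was at 278 and 273 CPM after V5 IP, 2832 and 3250 CPM after HA IP, 2090 CPM in the input and 3758 CPM in NIH3T3. Its log2 change after V5 IP was -3.19 (SE 0.43, edgeR adjusted p = 7.35e-05). In each species the on-target pair lay below all other libraries.

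Complex IV, cytochrome c oxidase, has 3 mitochondrially encoded core subunits. MT-CO1 (chrM:5904-7445), the catalytic subunit, was at 301.5 and 297 CPM after HA IP, 1365 and 2457 CPM after V5 IP, 3166 CPM in the input and 3641 CPM in HEK293. MT-CO2 (chrM:7586-8269) had the highest level per kilobase of the human mitochondrial mRNAs in each library with human cells, and was at 460 and 637 CPM after HA IP, 2552 and 3435 CPM after V5 IP, 7631 CPM in the input and 6966 CPM in HEK293. The log2 changes of MT-CO1, MT-CO2 and MT-CO3 after HA IP against the input were -3.58, -3.94 and -3.56, and the HA IPs did not overlap with the other libraries for any of them. Here and for the other members, lack of overlap is a description. The share of all genes with such a separation was not computed.

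The mouse gene at the MT-CO1 place (ENSMUSG00000064351.1) had the least negative change of the tested mouse members after V5 IP. It was at 358 and 300.4 CPM after V5 IP, 3525 and 2702 CPM after HA IP, 816 CPM in the input and 1022 CPM in NIH3T3. Both HA IPs were thus above the input and both V5 IPs below it. On the log2 scale it changed against the input by -1.57 (SE 0.41, edgeR adjusted p = 0.0643) after V5 IP and 1.44 (SE 0.46, edgeR adjusted p = 0.116) after HA IP. The fall after V5 IP passed the threshold at -1.65 with DESeq2 size factors (edgeR adjusted p = 0.0256), at -1.31 with scaling by total mouse counts (0.0289), at -1.54 without a filter (0.0253), at -1.58 with a filter of 50 counts in 2 libraries (0.0450) and at -1.65 with DESeq2 (0.00192). It also passed with only the groups compared. With nuclear counts as library size, with IP number as a replicate block or with either V5 IP left out, it did not pass. Without the first HA IP it was -1.56, and without the second -1.60. The rise after HA IP passed at 1.93 with scaling by total mouse counts (edgeR adjusted p = 0.00534) and at 1.49 with DESeq2 (adjusted p = 0.00700). It did not pass with DESeq2 size factors, nuclear counts as library size, no filter or a filter of 50 counts in 2 libraries. Nor did it pass with the replicate block, with only the groups compared or with either V5 IP left out. Without the first HA IP the change of the gene was 1.44, and without the second 1.40. Between the antibodies it fell, with a log2 change of V5 over HA of -3.01 (SE 0.38, edgeR adjusted p = 1.45e-05).

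Among mouse mitochondrial counts, this gene held 16.1% and 12.8% after V5 IP, 15.9% and 13.4% after HA IP, 4.14% in the input and 3.45% in NIH3T3. All 4 IPs were above both libraries made without IP. The human gene did not show a gap of that size: MT-CO1 held 8.52% and 6.37% of human mitochondrial counts after HA IP, 5.997% and 6.95% after V5 IP, 5.68% in the input and 4.36% in HEK293. The gene at the MT-RNR2 place showed the opposite pattern, with 32.2% and 33.0% of mouse mitochondrial counts after V5 IP, 30.8% and 25.7% after HA IP, 45.9% in the input and 52.1% in NIH3T3. These shares sum to a whole, so a higher share of 1 gene lowers the others, and the comparison was chosen after its values were seen and has no test.

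**Figure D4:**
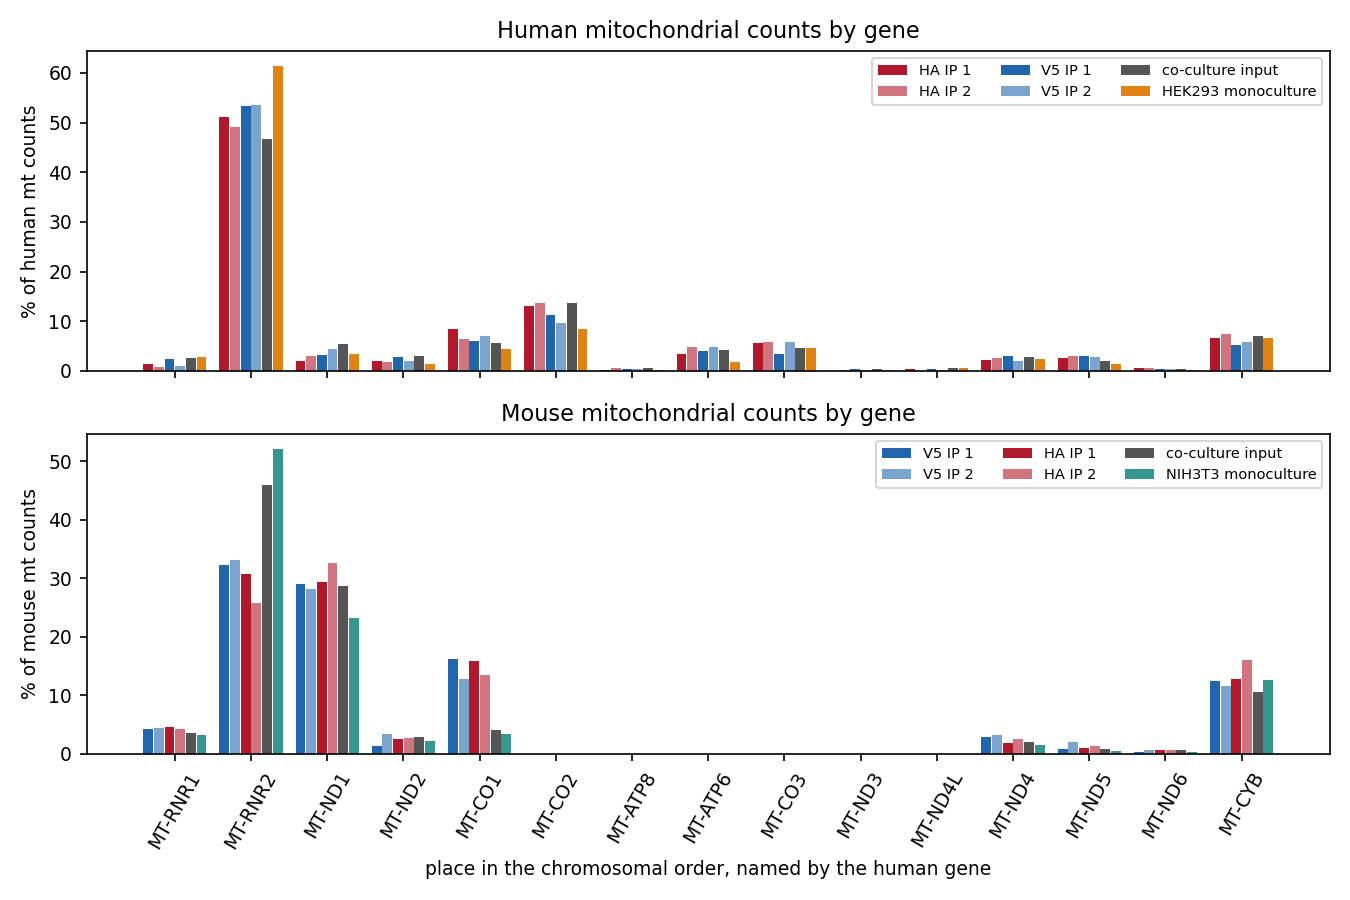
Share of each rRNA and protein-coding gene in the mitochondrial counts of its species (percent), with 1 bar per library, human genes above and mouse genes below. At the MT-CO1 place the mouse bars of the 4 IPs stand at 12.8% to 16.1%, against 4.14% in the input and 3.45% in NIH3T3.

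ATP synthase has 2 mitochondrially encoded subunits of its membrane part. MT-ATP6 (chrM:8527-9207) was at 119 and 222 CPM after HA IP, 931 and 1699 CPM after V5 IP, 2359 CPM in the input and 1430 CPM in HEK293, with a log2 change after HA IP of -3.90 (SE 0.53, edgeR adjusted p = 1.37e-10). MT-ATP8 (chrM:8366-8572) had 7 and 31 counts after HA IP, 10 and 11 after V5 IP, 87 in the input and 194 in HEK293, and changed by -4.19 (SE 0.79, edgeR adjusted p = 4.31e-05). The change of MT-ATP8 ran between -5.38 and -3.64 over 13 alternative settings, and it did not pass the threshold in 1 of them. In the HA IPs both genes were below the V5 IPs without overlap in CPM, and the HA against V5 test was passed by MT-ATP6 and not by MT-ATP8 (log2 change -2.05, edgeR adjusted p = 0.265).

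Over a stretch of the mouse chromosome almost no counts were recorded. The 9 consecutive genes from the place of MT-CO2 to that of MT-ND4L, 6 of them protein-coding, lie at 7013 to 10173 of the mouse mitochondrial chromosome as the files give it and had 21 counts over all 7 libraries. The human genes at the same places had 17902 counts. In HEK293 those places held 44.4% of the mitochondrial mRNA counts and 15.9% of all mitochondrial counts. At these places the mouse genes of MT-CO2, MT-CO3 and MT-ATP6 had 2, 5 and 5 counts in NIH3T3, against 5759, 3242 and 1182 counts of the human genes in HEK293. The gene at the MT-ND4L place (ENSMUSG00000065947.3) had 0 counts in every library.

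On mouse chromosome 1, in the files' coordinates, 4 annotated genes on the minus strand between 24612407 and 24614651 have lengths of 294, 345, 783 and 678 bases. These are within 3 bases of the 297, 348, 784 and 681 bases of the mitochondrial genes at the MT-ND4L, MT-ND3, MT-CO3 and MT-ATP6 places. They had 6, 180, 28 and 15 counts over the 7 libraries, and this match was looked for after the low stretch had been seen. Whether reads of the stretch could be placed elsewhere in the mouse genome was not tested. None of the 6 mouse mRNA genes in the stretch was tested gene by gene. Mouse mitochondrial shares are shares of what was counted, and measures that set all human members against all mouse members carry the human counts of the stretch with almost no mouse counts beside them.

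**Figure D5:**
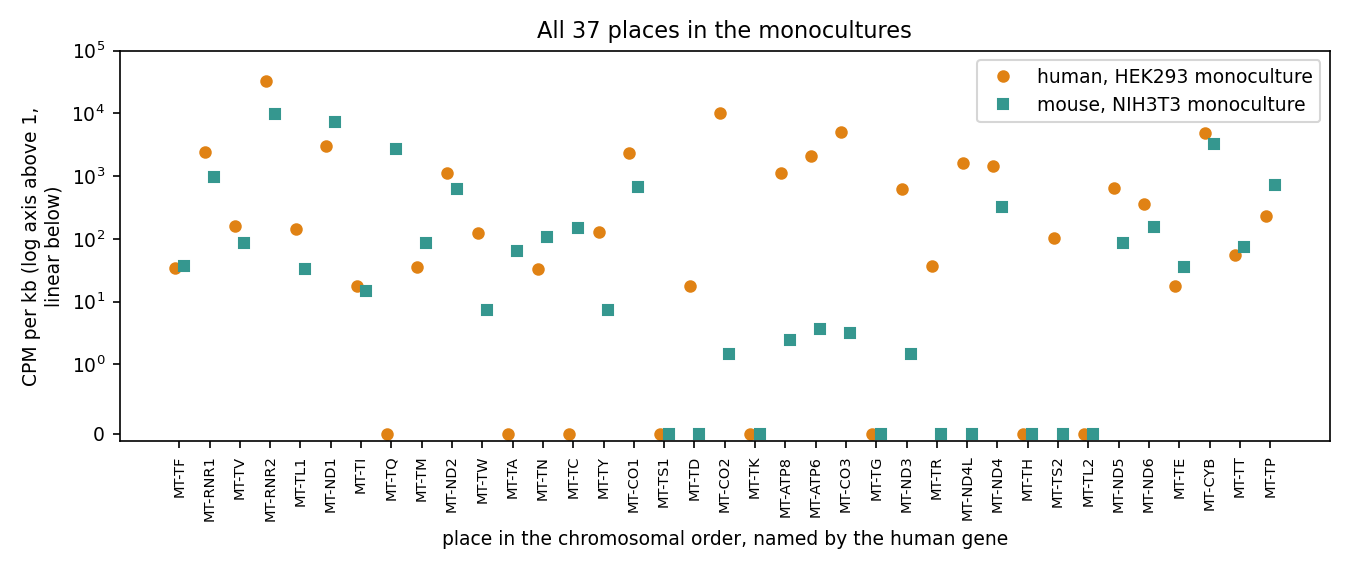
Level of every mitochondrial gene in CPM per kilobase (log axis above 1, linear below) at the 37 places, human genes in HEK293 and mouse genes in NIH3T3. The mouse mRNA places between MT-CO2 and MT-ND4L lie near or at 0, while the human genes there reach 10185 CPM per kilobase at MT-CO2.

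At the places outside this stretch the order of levels was similar in both species. Over the 7 protein-coding places with at least 20 mouse counts, Spearman's rho of CPM per kilobase between the human and the mouse gene was 0.893 for the monocultures, 0.893 for the input, 0.821 for the first on-target IPs and 0.714 for the second. Over all 13 places it was 0.137, -0.00552, 0.232 and 0.0735. Between libraries of 1 species the order was 0.813 to 0.973 over 13 human genes and 0.893 to 1 over 7 mouse genes. The points share their library and depth, and the values are given as a description.

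The drop in the IP aimed at the gene's own species was compared place by place over the 9 rRNA and protein-coding places tested in both. The human log2 change against the input (HA IPs) minus the mouse one (V5 IPs) was below 0 at 8 places and above 0 at 1, with a median of -0.97. It ran between -2.21 at the MT-RNR1 place and 0.04 at the MT-RNR2 place, with -2.01 at MT-CO1. The difference itself was not tested, since the fits are separate.

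Over both species together, with libraries scaled by total counts, human and mouse members were called in the same direction in each comparison. In the HA IPs against the V5 IPs, 8 of 15 human and 6 of 11 mouse members tested were higher and 0 were lower, with median log2 changes of 1.08 and 1.10. At an unadjusted p under 0.05, 0 were lower by edgeR, and DESeq2 called 0 lower. Over all genes, 80.3% of human and 0.161% of mouse genes were called higher in that comparison. Without the first V5 IP the counts were 2 human and 1 mouse, without the second 4 and 3, and without the second HA IP 5 human members.

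In the HA IPs against the input, 14 of 15 human and 6 of 11 mouse members fell, beside 0.222% of human and 21.4% of mouse genes. In the V5 IPs against the input, 15 of 15 human and 9 of 11 mouse members fell, beside 18.3% of human and 0.322% of mouse genes. Of these mouse members 1 was a tRNA gene. The gene at the mouse MT-CO1 place had a log2 change of 0.05 (SE 0.43, edgeR adjusted p = 0.945) after HA IP and -0.94 (SE 0.41, edgeR adjusted p = 0.177) after V5 IP. At -2.11 and -3.13 in the same comparisons, MT-RNR2 fell in both.

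The species mix also differed between places within a library. Human genes held 54.9% and 60.5% of the counts at the MT-RNR2 place after HA IP, 53.1% and 53.4% after V5 IP and 51.5% in the input. At the MT-RNR1 place they held 17.5% and 13.3% after HA IP, 27.9% and 13.3% after V5 IP and 43.5% in the input. At the MT-CO1 place the human share was 28.2% and 27.6% after HA IP, 20.3% and 27.7% after V5 IP and 58.9% in the input. The first of these places was above the input in all 4 IPs, and the other 2 places were below it in all 4 IPs.

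Transfer RNA genes gave few counts. Over the 7 libraries the 22 human tRNA genes had 126 counts and the 22 mouse ones 781, and 4 human and 6 mouse tRNA genes had 0 in every library. MT-TV, which carries valine, had 3 and 3 counts after HA IP, 3 and 5 after V5 IP, 4 in the input and 9 in HEK293. MT-TP, which carries proline, had 1 and 7 after HA IP, 0 and 2 after V5 IP, 2 in the input and 13 in HEK293. Neither passed the test in any human comparison.

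The mouse gene at the MT-TQ place (ENSMUSG00000064343.1) was the most counted tRNA gene, with 9 and 6 counts after V5 IP, 6 and 21 after HA IP, 27 in the input and 391 in NIH3T3. It was at 4.65 and 3.44 CPM after V5 IP, 37.8 and 59.97 CPM after HA IP, 35.5 CPM in the input and 196 CPM in NIH3T3, and fell after V5 IP against the input by 3.36 on the log2 scale (SE 0.73, edgeR adjusted p = 0.0157). At the MT-TP place ENSMUSG00000064372.1 had 7 and 6 counts after V5 IP, 10 and 15 after HA IP, 51 in the input and 98 in NIH3T3, and changed by -4.47 (SE 0.79, edgeR adjusted p = 0.00238). ENSMUSG00000064349.1, at the MT-TC place, had 0 counts in the 4 IPs, 7 in the input and 20 in NIH3T3. In both species the MT-TQ, MT-TP and MT-TC places lie on the minus strand. Since counting ignored strand, reads of these tRNAs and of RNA from the other strand cannot be told apart.

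The libraries made without IP were set beside each other gene by gene. The input over HEK293 ratio of CPM ran between 0.509 for MT-RNR2 (95% interval 0.496 to 0.521) and 1.65 for MT-ATP6 (1.498 to 1.82) over the 15 human rRNA and protein-coding genes, with a median of 0.935. Over the 9 mouse ones the input over NIH3T3 ratio ran between 0.556 at the MT-CYB place and 1.57 at the MT-ND6 place, with a median of 0.826. The gene at the MT-TQ place lay outside that range, at 0.182 (0.118 to 0.268). These are single libraries, and the intervals cover counting error only.

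Nuclear genes for the same complexes were looked at in human counts, from lists of complex subunits and of factors for mitochondrial transcription, RNA processing and translation. After HA IP against the input, 0 of the 108 list genes tested passed the edgeR test in either direction, beside 0.432% lower and 0.192% higher of all human genes. At an unadjusted p under 0.05 there were 9 of 108, beside 553 of all 6244 genes, and DESeq2 called 1 of 108. The median log2 change was 0.27 over 36 complex I subunits, 0.46 over 9 complex III, 0.22 over 10 complex IV and 0.39 over 16 ATP synthase subunits, beside 0.38 over all genes. COX4I1, a nuclear subunit of complex IV, had a log2 change of -0.24 (SE 0.51, edgeR adjusted p = 0.952), and ATP5IF1, an inhibitor of ATP synthase, 0.94 (SE 0.51, edgeR adjusted p = 0.592). The complex IV values ran between -0.24 and 1.13, with 7 of 10 above 0, so COX4I1 lay at their lower end. The medians were 1.09 over 10 transcription and replication factors, 0.79 over 16 RNA processing factors and 0.53 over 11 translation factors. After HA IP against V5 IP, 0 of 108 passed the edgeR test, beside 0.32% lower and 0.048% higher of all human genes, and DESeq2 called 0. At an unadjusted p under 0.05 there were 32 of 108, beside 697 of 6244. All 10 complex IV and all 16 ATP synthase genes had values above 0 in that comparison, with medians of 0.95 and 0.85, and 30 of 36 complex I genes did, with a median of 0.84, beside 0.37 over all genes. Of 9 complex III genes 7 were above 0 (median 0.79). The factor lists were mixed: 6 of 10 transcription and replication (0.17), 7 of 16 RNA processing (-0.29) and 6 of 11 translation genes (0.45) were above 0. The share of all human genes above 0 was not computed.

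After V5 IP against the input, 27 of 36 complex I, 9 of 10 complex IV and 15 of 16 ATP synthase genes had values below 0, with medians of -0.66, -0.67 and -0.48, beside 0 over all genes. Of 9 complex III genes 5 were below 0 and 4 above (median -0.69). The factor lists went the other way. Above 0 were 7 of 10 transcription and replication (median 1.49), 10 of 16 RNA processing (0.72) and 7 of 11 translation genes (1.504). How many of all human genes lay below 0 was not computed. At an unadjusted p under 0.05 there were 9 of 108, beside 807 of 6244. TBRG4, of the RNA processing list, was the only list gene called by edgeR after V5 IP against the input, beside 0.496% lower and 0.256% higher of all human genes, at -3.56 (SE 0.97, edgeR adjusted p = 0.0375).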

How the data were processed

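Each of the 7 deposited files gives the counts of 1 library per gene, as whole numbers. Per the file headers, featureCounts 1.5.2 counted exons by gene identifier for paired reads, without strand, on an annotation that joins human and mouse. Library preparation used SMART-seq cDNA and then Nextera DNA Flex, per the labels' protocols. Tools in the submitters' processing notes include STAR 2.5.2 and Trim Galore, and the build named there is hg38. For mouse, the build was not given in the sources used here. All 37 human members matched GENCODE 29 in identifier, start and end.

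Each library gave its shares, with Clopper-Pearson 95% intervals (exact), and the antibodies were compared by exact permutation. CPM scales to 1000000 counts of the same species. Genes were tested with edgeR 4.0.16 in R 4.3.3 (quasi-likelihood, TMM on own-species counts, minimum count 10 and total 15, threshold 0.05). The fit of each species held both pairs of IPs, the input and that species' monoculture, with 2 residual degrees of freedom and a biological coefficient of variation of 51.2% for human and 44.8% for mouse genes. The fit over both species used the 5 co-culture libraries scaled by total counts. DESeq2 1.42.0 was an alternative. The procedure was also run on counts simulated with the fits' own spread, so that run cannot check the spread itself. Shares and figures used Python 3.11.15 with scipy 1.17.1, pandas 2.3.3 and matplotlib 3.10.9.

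All rRNA and protein-coding members are named, and tRNA genes with at least 20 counts over the 7 libraries. From the nuclear lists, called genes or the most abundant members could be named. The members and lists were chosen with earlier results of these data known. Libraries of the same IP number were not taken as pairs, since the second IPs came from different lysates.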

Additional observations from a re-analysis of the deposited data

Results flagged for a closer look

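The share of mitochondrial genes in the counts of a species moved in opposite directions between the antibodies. HA IPs minus V5 IPs was -2.50 points for human counts and 1.89 points for mouse counts, with every HA IP below every V5 IP for human and above every V5 IP for mouse. The difference between the species was not tested.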

How the results depend on the processing

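No gene called in a comparison changed sign under any alternative tried for it. In human HA IPs against the input and against HEK293, the count of 15 members called lower stayed within 1.5 times under every alternative, at 12 to 15 when 1 IP was left out. Human V5 IPs against the input, with 5 called lower, gave 8 with DESeq2 size factors, 0 with a filter of 50 counts in 2 libraries, 10 with only the groups compared, and 0 to 11 when 1 IP was left out. Human HA against V5, with 12, gave 3 to 11. For mouse, V5 against input gave 0 to 12, V5 against HA 0 to 11 and 7 with only the groups compared, and V5 against NIH3T3 3 to 12 and 6 with the 50-count filter. Mouse HA against input gave 1 called higher with total counts and 1 with DESeq2, and 0 to 1 in each direction with 1 IP left out. Over both species, HA against V5 gave 5 human members without a filter, 5 with DESeq2 and 2 to 10 with 1 IP left out, and 10 mouse members with TMM factors and 1 to 6 with 1 IP left out. The cause was not tested. Leaving out an IP also leaves fewer samples for the estimate of spread.

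With IP number as a replicate block, the count for human V5 against the input was 8 instead of 5. The block changed no other count by over 1.5 times. Deviations of the second IP relative to the first correlated between antibodies at 0.489 over 271 human and 0.532 over 506 mouse genes. The first IPs shared lysate 1, and the second came from lysates 5 and 4. With 1 shared lysate these correlations do not settle whether the libraries are paired.

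HA minus V5 kept its direction in every share computed. It ran between -3.13 and -1.87 points for human, 1.79 and 1.99 for mouse, and 1.29 and 3.47 for the human share of mitochondrial counts with 1 IP left out. Using only the 28 places outside the mouse stretch with few counts, chosen after seeing the data, that last value was 1.21. The median log2 change of all human genes, HA against input, was 0.38 and moved to 0.17 with DESeq2 size factors and 0.57 with total counts, where the members' median was -4.15 and -3.78. Depth limits the tRNA genes and the shortest mRNAs, and inputs and monocultures have no replicate.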
